A study of Mus musculus with 6 samples.

Results

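The interleukin-6 family receptors, their ligands and the transcription factor Stat3 were examined in reactive and non-reactive astrocytes of the mouse cortex. The genes were Lif, Clcf1 and Cntf (ligands), Il6st, Osmr, Lifr and Cntfr (receptor chains), Stat3 and Cebpd (transcription factors) and Socs3 (inhibitor). Members were all probe sets that the platform annotation assigns to exactly 1 of these symbols, which gave 26 of the 45037 non-control probe sets and 9 of the 10 genes. The only probe set of Cntf is also assigned to another symbol, so Cntf is not described further. Several probe sets read the same gene, so the 26 are not independent of each other.

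The series measured gene expression on 6 Affymetrix arrays of sorted green fluorescent cells, each from a pool of about 15 animals, in a study of galectins in the injured brain. The reactive group of 3 arrays came from TgN(hGFAP-EGFP) GFEA mice, whose fluorescence depends on the human GFAP promoter, and was collected 5 days after a stab injury to cortical grey matter in the somatosensory area. The non-reactive group of 3 arrays came from Tg(Aldh1l1-eGFP)OFC789Gsat mice without injury, whose fluorescence depends on the Aldh1l1 promoter. All animals were of the FVB/N strain, 2 to 3 months old and of undetermined sex. Injury and reporter line coincide, so their effects cannot be told apart. A GFAP promoter selects cells in 1 group only, and Gfap is itself a gene that Stat3 regulates.

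Cytokines of this family share the signalling chain gp130, the product of Il6st, and pair it with a second chain such as the oncostatin M receptor (Osmr) or the leukaemia inhibitory factor receptor (Lifr). The occupied receptor activates Janus kinases, which phosphorylate Stat3. Phosphorylated Stat3 enters the nucleus and switches on target genes, among them Socs3, whose product binds gp130 and shuts the signal down. In astrocytes this pathway is known for its part in scar formation after injury. Arrays measure messenger RNA and carry no information on phosphorylation.

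Values are log2 expression values, differences are reactive minus non-reactive on that scale, and calls are those of limma with an adjusted p below 0.05 over all 45037 probe sets. Array medians were 4.65 to 4.73. Pairs of arrays correlated at 0.901 to 0.921 within the reactive and 0.950 to 0.963 within the non-reactive group. All 10 astrocyte markers measured had means above 4.74, the median of all probe set means. Their mean level was nevertheless lower in reactive arrays (10.23 to 10.55) than in non-reactive arrays (10.96 to 11.35). Of them Gfap rose, and Slc1a3 and Gja1, genes of a glutamate transporter and a gap junction protein, fell. The mean level of the microglia and macrophage markers was higher in every reactive array than in any non-reactive array. Their summed log2 level over 15 of 16 listed genes was 141.9 to 147.5 in reactive arrays and 113.6 to 117.4 in non-reactive arrays. Of the 15 genes, 1 had a mean below 4.74. Trem2, Tyrobp, C1qa, C1qc, Cd68 and Fcer1g rose. The groups did not overlap in 10 of the 15, all higher in reactive arrays, against 13.5% of all named genes. Csf1r, the brightest of them, and Cx3cr1 differed by 0.42 and 0.04, with overlapping groups. The corresponding sums were 59.3 to 67.3 against 43.4 to 48.8 for 9 of 11 blood leukocyte markers, and 77.7 to 82.6 against 65.7 to 73.0 for 8 of 9 oligodendrocyte markers. Means were below 4.74 for 2 of the leukocyte and 0 of the oligodendrocyte markers. Lyz2, Plac8 and Cd52 rose among the leukocyte markers and Ermn among the oligodendrocyte markers. Differences were above 0 in 8 of 9 leukocyte and 7 of 8 oligodendrocyte markers, against 60.7% of all named genes. Mbp, the brightest oligodendrocyte marker measured, was lower in reactive arrays at -0.49, and Mobp differed by 0.14. Among leukocyte markers Ccr2 differed by -0.03, Cd3d by 0.03 and Cd3e by 0.15, none of them called. Sums were 29.8 to 31.9 against 25.9 to 29.6 for 4 of 4 oligodendrocyte progenitor markers and 59.7 to 73.0 against 65.8 to 70.4 for 8 of 8 neuronal markers. Neither list held a call or a gene with a mean below 4.74. In sorted bulk samples, more cells of a type and more RNA per cell cannot be told apart.

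**Figure D1:**
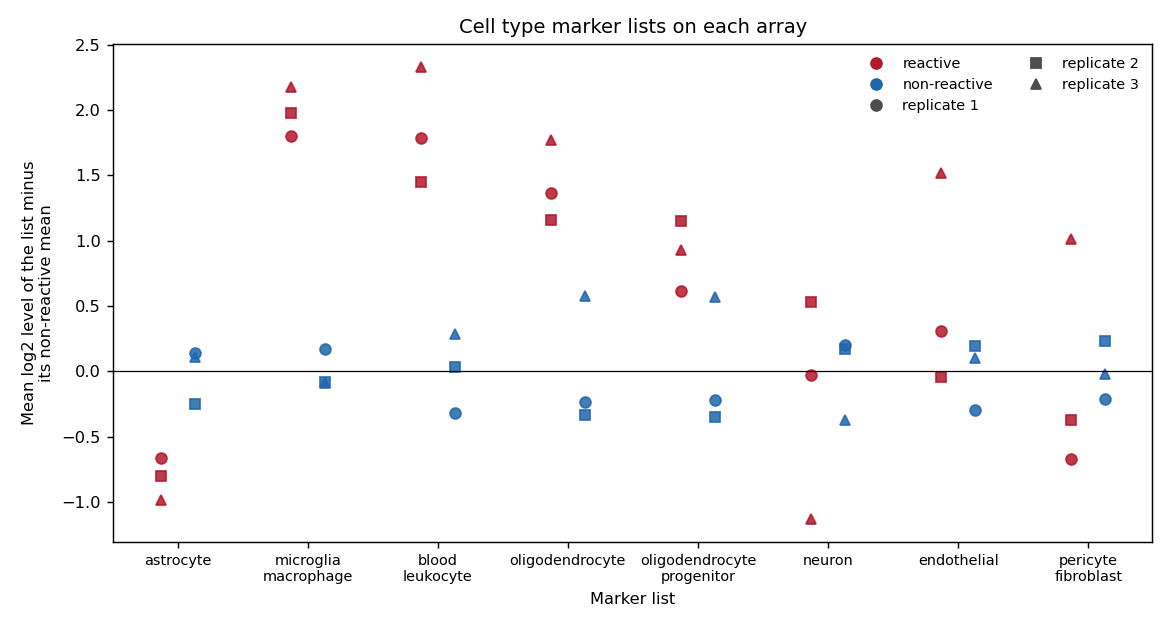
Mean log2 level of each marker list in each array minus the list's mean over the non-reactive arrays, reactive arrays (red) left of non-reactive arrays (blue), 1 point per array and a marker shape per replicate. All reactive points of the microglia and macrophage list lie above its non-reactive points, and in the endothelial list reactive replicate 3, with a mean level of 5.90, stands above the other arrays.

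Of the 26 member probe sets, 1 rose, a probe set of Socs3, and 0 fell. Across the array 0.266% of probe sets rose and 0.85% changed in either direction. The receptors, the ligands and Stat3 itself gave no call, with intervals that for most probe sets reach to both sides of no difference. At an unadjusted p below 0.05 by limma, 5 of the 26 were higher (19.2%, against 6.34% of all probe sets) and 0 were lower. These 5 were 2 probe sets of Socs3 and 1 each of Cebpd, Osmr and Clcf1. The median difference over the members was 0.20, against 0.10 over all probe sets. The groups did not overlap in 5 member probe sets, all higher in reactive arrays, against 12.8% of all probe sets higher and 8.08% lower. With each gene represented by its brightest probe set, 0 of 9 genes passed, and 3 were higher at an unadjusted p below 0.05 by limma (33.3%, against 7.88% of all 18193 named genes).

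**Figure D2:**
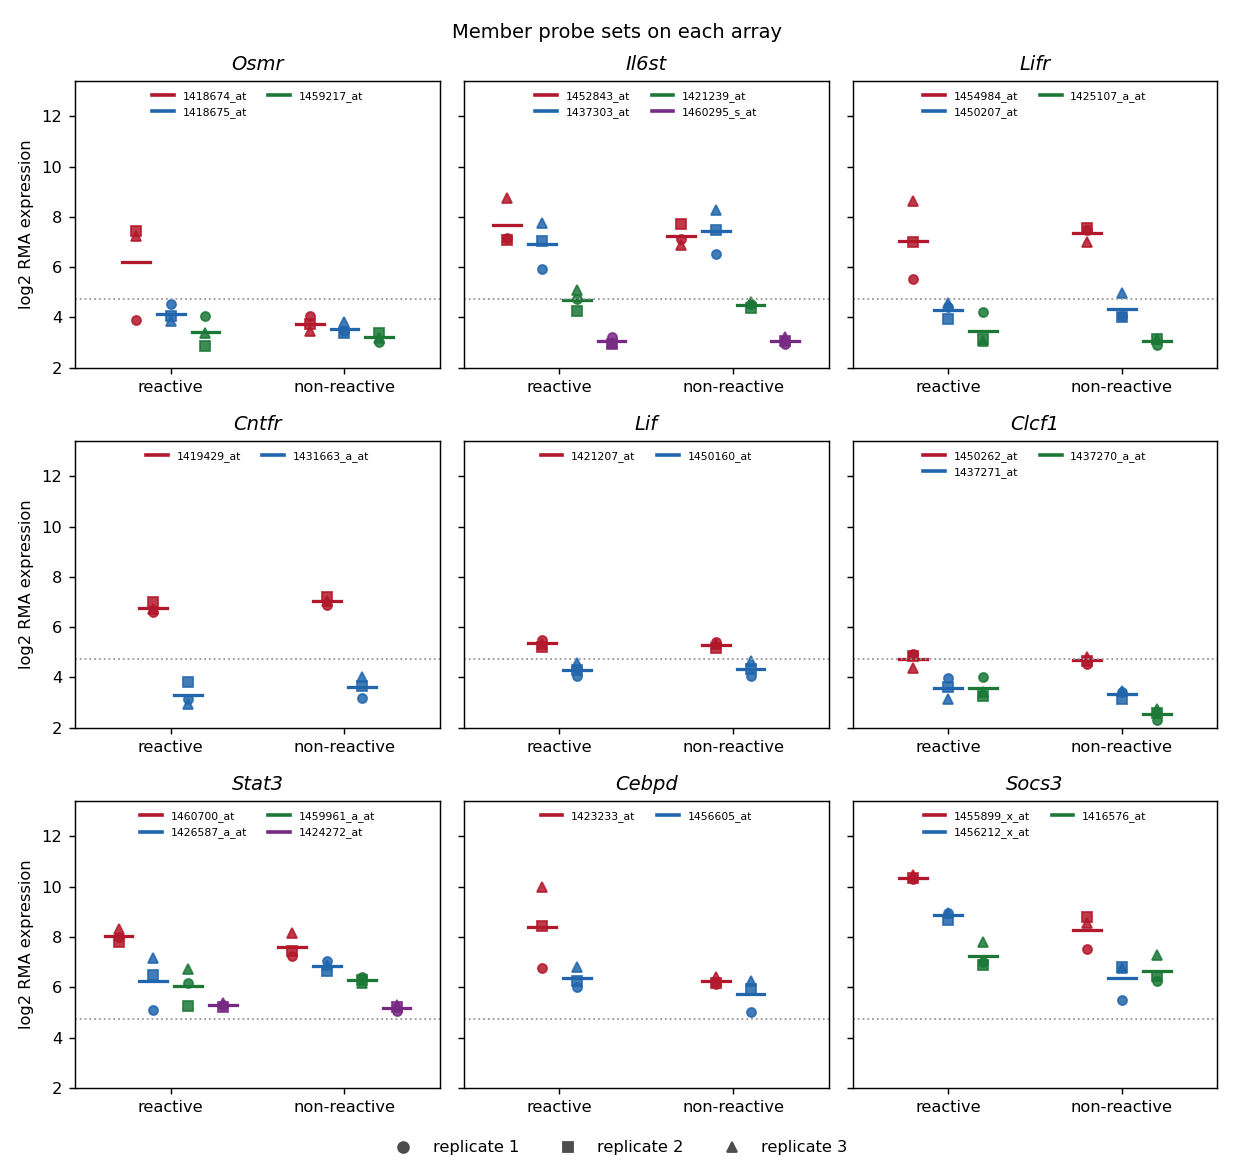
Log2 level of the members in each array, reactive arrays left and non-reactive arrays right, 1 point per array with a shape per replicate, a colour per probe set, short lines at the means of 3 arrays and a dotted line at 4.74. The reactive values of Socs3 1456212_x_at lie between 8.68 and 8.95, above all non-reactive values, while Osmr 1418674_at has 1 reactive array at 3.89, inside the non-reactive range.

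**Figure D3:**
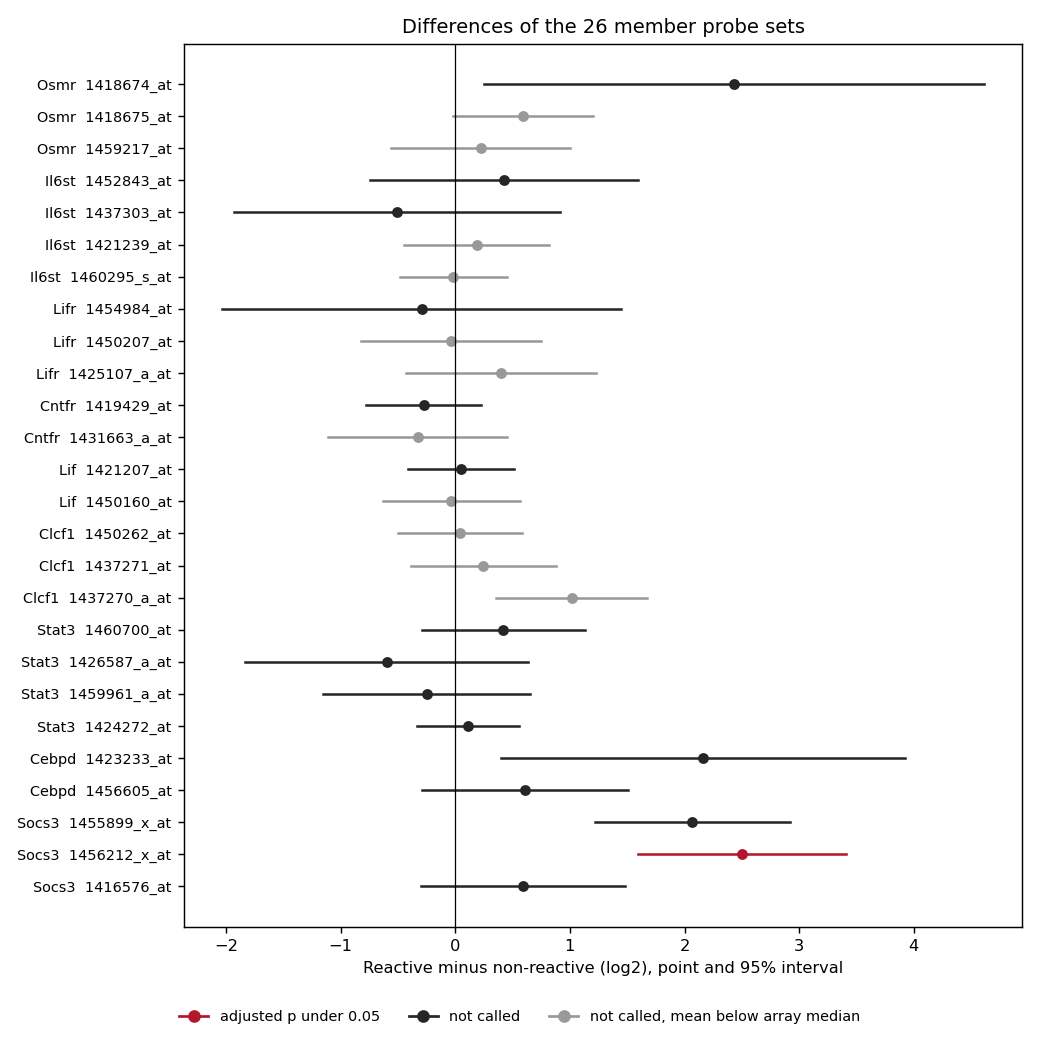
Reactive minus non-reactive difference (log2) of the 26 member probe sets, with 95% intervals. Only Socs3 1456212_x_at, at 2.50, passed the threshold, and grey points are probe sets with a mean below 4.74.

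Socs3, the feedback inhibitor of gp130 signalling, was read by 3 probe sets. The probe set 1456212_x_at had 8.94, 8.68 and 8.95 in reactive replicates 1, 2 and 3, against 5.50, 6.81 and 6.75 in non-reactive replicates 1, 2 and 3. The groups did not overlap, and the reactive arrays lay closer together than the non-reactive ones (8.86 ± 0.15 against 6.35 ± 0.74, SD, n = 3 each). The difference was 2.50 (SE 0.38, 95% interval 1.60 to 3.41), a 5.67-fold higher level, with a limma adjusted p of 0.0488. The brightest probe set, 1455899_x_at, had 10.31, 10.33 and 10.45 in reactive arrays, against 7.50, 8.81 and 8.57 in non-reactive arrays. It differed by 2.07 (SE 0.36, 95% interval 1.22 to 2.92) and narrowly missed the threshold, with a limma adjusted p of 0.0654. The suffix _x_at marks probe sets whose probes can match other transcripts.

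The other Socs3 probe set, 1416576_at, has no such suffix and differed less. It had 7.01, 6.90 and 7.79 in reactive arrays, against 6.23, 6.43 and 7.27 in non-reactive arrays. Its groups overlapped, with a difference of 0.59 (SE 0.37, 95% interval -0.30 to 1.48) and a limma adjusted p of 0.539. The probe sets of Socs3 thus disagree in size, although each difference is above 0. The call on 1456212_x_at was kept in 2 of the 15 alternative settings that hold it, with adjusted p-values of 0.0403 to 0.147 and differences of 2.08 to 2.73. The mean level of microglia and macrophage markers was also higher in every reactive array than in any non-reactive array. The same held for the leukocyte, oligodendrocyte and oligodendrocyte progenitor lists. Within each group, the order of the arrays by the microglia and macrophage level differed from their order by 1456212_x_at. The part of these cells in the result was not tested. The 3′ minus 5′ difference of control probe sets, a measure of how far transcripts were shortened, also differed between the groups without overlap. It averaged 4.17 in reactive and 5.19 in non-reactive arrays for Gapdh, 3.38 and 5.05 for Actb, and 1.44 and 3.46 for Pcx, and its part was not tested. Without reactive replicate 3, the array with the highest mean level of endothelial markers, the difference of 1456212_x_at was 2.46. It was not called there (limma adjusted p = 0.0944), nor with any other array left out.

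Stat3 binds the palindrome TTCNNNGAA, which reads the same on both strands. The 250 bases before the start site of Socs3 are shown because Socs3 holds the call and is the only member whose window matches this motif, in capitals, with its first base 154 bases before the start. The window of Osmr is shown beside it as a receptor gene without a match. Both are RefSeq sequences of assembly GRCm38.p6, minus strand, at chr11:117969367-117969616 for Socs3 and chr15:6874314-6874563 for Osmr.
Socs3: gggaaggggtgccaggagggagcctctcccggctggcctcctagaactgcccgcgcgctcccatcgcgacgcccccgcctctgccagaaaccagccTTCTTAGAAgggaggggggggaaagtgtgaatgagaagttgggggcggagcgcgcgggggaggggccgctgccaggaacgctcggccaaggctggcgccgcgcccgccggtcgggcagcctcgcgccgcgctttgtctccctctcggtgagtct
Osmr: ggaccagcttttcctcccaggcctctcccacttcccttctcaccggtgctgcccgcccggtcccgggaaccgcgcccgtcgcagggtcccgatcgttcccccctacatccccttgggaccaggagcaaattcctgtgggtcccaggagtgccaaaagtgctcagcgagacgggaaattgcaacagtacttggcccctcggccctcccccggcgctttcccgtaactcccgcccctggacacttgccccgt
The motif was in 1 of 14 windows of the 8 members that have one, and in 7.015% of 32817 promoter windows of the same length. A match of letters is a description and not a measured binding site.

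The receptors gave no call. Osmr, the chain through which oncostatin M signals, had the largest receptor difference. Its probe set 1418674_at had 3.89, 7.43 and 7.23 in reactive replicates 1, 2 and 3, against 4.04, 3.75 and 3.46 in non-reactive arrays. Reactive replicate 1 lay within the non-reactive range and the other two reactive arrays lay far above it, so the groups overlapped. The means were 6.18 ± 1.99 in reactive and 3.75 ± 0.29 in non-reactive arrays (SD, n = 3 each). The difference was 2.43 (SE 0.91, 95% interval 0.25 to 4.62), with a limma adjusted p of 0.333. Without reactive replicate 1 it was 3.58 with a limma adjusted p of 0.0494, the only setting that called Osmr. The other Osmr probe sets, both with means below 4.74, differed by 0.59 (1418675_at, limma adjusted p = 0.388) and 0.22 (1459217_at, limma adjusted p = 0.790).

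Il6st encodes gp130, the chain that all these cytokines share. Its probe set 1452843_at had 7.15, 7.09 and 8.73 in reactive arrays, against 7.10, 7.70 and 6.89 in non-reactive arrays, a difference of 0.43 (SE 0.49, 95% interval -0.74 to 1.59). The probe set 1437303_at gave the opposite sign, with 5.94, 7.03 and 7.76 in reactive arrays, against 6.51, 7.46 and 8.29 in non-reactive arrays and a difference of -0.51 (SE 0.60, 95% interval -1.93 to 0.91). Leaving out reactive replicate 1 or 3 moved it to -0.0238 or -0.94, and leaving out non-reactive replicate 1 or 3 to -0.96 or -0.076. The groups overlapped in both, and limma gave adjusted p-values of 0.729 and 0.734. The 2 remaining Il6st probe sets were dim and differed by 0.19 and -0.02.

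Lifr pairs with gp130 for leukaemia inhibitory factor. At 1454984_at it had 5.51, 7.00 and 8.63 in reactive replicates 1, 2 and 3, against 7.46, 7.55 and 7.01 in non-reactive arrays. The reactive arrays spread on both sides of the non-reactive ones, with means of 7.05 ± 1.56 and 7.34 ± 0.29 (SD, n = 3 each). The difference was -0.29 (SE 0.73, 95% interval -2.03 to 1.45, limma adjusted p = 0.881). Both other Lifr probe sets were dim, at -0.04 and 0.40.

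Cntfr, the chain that binds ciliary neurotrophic factor, had 6.59, 6.99 and 6.71 in reactive arrays at 1419429_at, against 6.87, 7.20 and 7.06 in non-reactive arrays. The groups overlapped and the difference was -0.28 (SE 0.21, 95% interval -0.78 to 0.23, limma adjusted p = 0.601). This was the narrowest interval among the receptor probe sets with means above 4.74.

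The ligands gave no call. Lif, which encodes leukaemia inhibitory factor, had 5.51, 5.21 and 5.35 in reactive arrays at 1421207_at, against 5.40, 5.19 and 5.34 in non-reactive arrays. The difference was 0.05 (SE 0.19, 95% interval -0.41 to 0.51, limma adjusted p = 0.928), and the dimmer Lif probe set differed by -0.03. Clcf1, a ligand of the ciliary neurotrophic factor receptor, was read only by probe sets with means below 4.74. Of its 3 probe sets, 1437270_a_at had 4.04, 3.25 and 3.41 in reactive arrays, against 2.29, 2.60 and 2.76 in non-reactive arrays. These groups did not overlap, but all values lay below 4.74. The difference was 1.02 (SE 0.28), with a limma adjusted p of 0.190. The other Clcf1 probe sets differed by 0.04 and 0.25.

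Stat3 transcript did not pass at any of its 4 probe sets. The brightest, 1460700_at, had 7.98, 7.79 and 8.33 in reactive arrays, against 7.26, 7.45 and 8.14 in non-reactive arrays. The groups overlapped, with means of 8.03 ± 0.27 and 7.61 ± 0.47 (SD, n = 3 each). The difference was 0.42 (SE 0.30, 95% interval -0.29 to 1.13, limma adjusted p = 0.578). At 1426587_a_at, reactive arrays had 5.09, 6.50 and 7.18, against 7.05, 6.64 and 6.87 in non-reactive arrays, a difference of -0.60 (SE 0.52, 95% interval -1.83 to 0.64). That difference was -0.0103 without reactive replicate 1 and -1.06 without reactive replicate 3. The other two probe sets differed by -0.25 (1459961_a_at) and 0.11 (1424272_at), so the 4 did not share a sign.

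Cebpd encodes C/EBP delta, a transcription factor of the acute phase response that Stat3 induces. At 1423233_at it had 6.78, 8.42 and 9.98 in reactive replicates 1, 2 and 3, against 6.13, 6.16 and 6.42 in non-reactive arrays. The groups did not overlap, but the reactive arrays were far apart (8.39 ± 1.60 against 6.23 ± 0.16, SD, n = 3 each). The difference was 2.16 (SE 0.74, 95% interval 0.40 to 3.92), with a limma adjusted p of 0.291. Its value was 1.37 without reactive replicate 3 and 2.97 without reactive replicate 1. The other probe set, 1456605_at, had 6.01, 6.25 and 6.79 in reactive arrays, against 5.03, 5.94 and 6.25 in non-reactive arrays, and differed by 0.61 (SE 0.38, limma adjusted p = 0.531).

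Several member probe sets varied widely among reactive arrays. Over all probe sets, too, reactive arrays were less alike (correlations of 0.901 to 0.921) than non-reactive arrays (0.950 to 0.963). The SD over 3 arrays was above 1 in the reactive group for 4 of 26 member probe sets (15.4%, against 10.9% of all probe sets), those of Osmr, Cebpd, Lifr and Stat3 1426587_a_at, and in the non-reactive group for 0. It was larger in the reactive group for 18 of 26 (69.2%, against 62.6% of all probe sets), a share near that of the whole array. In all 4 of these probe sets reactive replicate 1 was the lowest reactive array, and in Cebpd, Lifr and this Stat3 probe set replicate 3 was the highest. Reactive replicate 3 also had the highest mean levels of the endothelial list and of the pericyte and fibroblast list. Endothelial markers, 6 of 6 measured, had means of 4.69, 4.34 and 5.90 in reactive arrays and 4.09, 4.58 and 4.48 in non-reactive arrays. Their sums were 26.0 to 35.4 and 24.5 to 27.5, and 3 of the 6 genes had means below 4.74 over all arrays. Pericyte and fibroblast markers, 8 of 8, had means of 4.40, 4.70 and 6.08 in reactive arrays and 4.86, 5.30 and 5.05 in non-reactive arrays. Their sums were 35.2 to 48.7 and 38.9 to 42.4, and 3 of the 8 had means below 4.74. In reactive replicate 3 Col1a1, Col3a1 and Dcn had 8.22, 7.70 and 7.05, far above the other reactive arrays. Rgs5 (6.69) and Anpep (4.02) were also highest there among reactive arrays, but Rgs5 lay below every non-reactive array (6.76 to 7.78). Among reactive arrays Pdgfrb was instead highest in replicate 2, and Kcnj8 and Lum were lowest in replicate 3. The part of these cells in the spread was not tested.

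Other genes of the pathway were taken from lists drawn up from textbook knowledge with earlier results of these data known. Each gene was read by its brightest probe set, and 66 of 71 were measured. Across all 18193 named genes, 0.39% rose and 0.561% fell. The remaining family ligands gave 0 calls of 5 (limma, with 0 at an unadjusted p below 0.05), among them Il6 at 0.44, Il11 at 0.30, Ctf1 at -0.36 and Ebi3 at 0.31. The Il6 probe set was dim, with a mean of 3.06. Osm, the oncostatin M gene, had 8.40, 7.44 and 6.90 in reactive arrays, against 6.27, 6.96 and 7.05 in non-reactive arrays, a difference of 0.82 (SE 0.43, limma adjusted p = 0.466). It was highest in reactive replicate 1, the reactive array with the lowest value of Osmr 1418674_at and the highest values of the 2 dim Osmr probe sets. The remaining receptors gave 0 calls of 3 (limma, with 0 at an unadjusted p below 0.05), at -0.45 for Il6ra, 0.20 for Il27ra and 0.05 for Il31ra. The other probe sets of Il6ra and Il31ra differed by 0.27 and 0.19. The probe set of Il27ra and this one of Il31ra were dim, with means below 4.74.

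The kinases and adaptors that relay the signal also gave 0 calls of 12 by limma, with 2 higher and 1 lower at an unadjusted p below 0.05, and a median difference of -0.25 against 0.12 for all named genes. Ptpn11 encodes SHP2, a phosphatase that docks on gp130. It had 8.40, 8.53 and 9.32 in reactive arrays, against 10.42, 10.19 and 10.49 in non-reactive arrays, and differed by -1.61 (SE 0.29, limma adjusted p = 0.0732), although its other probe sets differed by -0.61 and 0.24. Jak1, the main kinase of gp130, differed by -0.85 (limma adjusted p = 0.398), Jak2 by -0.24, Stat4 by 0.85 and Grb2 by -0.26. Their other probe sets differed by -0.42 and -1.56 for Jak1, -0.77 for Jak2 and -0.20 for Grb2, without a call. The Stat4 probe set, this Jak2 probe set and the Ptpn11 probe set at 0.24 had means below 4.74. Other inhibitors of the pathway gave 0 calls of 14 by limma, with 1 higher and 2 lower at an unadjusted p below 0.05. Pias1, an inhibitor of activated STAT proteins, had 6.05, 5.40 and 5.77 in reactive arrays, against 8.09, 7.59 and 7.22 in non-reactive arrays. Its groups did not overlap, and its difference of -1.89 (SE 0.30) just missed the threshold (limma adjusted p = 0.0531), while its other probe sets differed by -0.83, -0.53 and -0.92. By their brightest probe sets, relatives of Socs3 differed by -0.89 (Socs2), 0.85 (Socs6) and -0.56 (Socs7), and the phosphatase gene Ptpn1 by -0.08, none of them called. The probe sets of each of these genes disagreed in sign, from -1.22 to 1.33 over the probe sets of Socs2, -0.21 to 0.85 for Socs6, -0.56 to 0.27 for Socs7 and -0.08 to 0.23 for Ptpn1. Every Socs6 probe set, and every Socs2 probe set but the brightest, had a mean below 4.74.

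Among 29 listed target genes of Stat3, all measured, 2 rose, Gfap and Junb, and 1 fell, Vegfa. The differences were above 0 in 27 of the 29 (93.1%, against 60.7% of all named genes), with a median of 1.16 against 0.12 for all named genes. The 2 below 0 were Vegfa and Bcl6, and Bcl6 was named after its value was seen. The groups did not overlap in 19, all higher in reactive arrays, and in 1 more (Vegfa) that was lower, where 13.5% of named genes were higher without overlap. At an unadjusted p below 0.05 by limma, 18 were higher (62.1%, against 7.88% of all named genes) and 1 was lower. The list was chosen with earlier results of these data known. It also holds Gfap, whose promoter defined the reactive sort, so these shares are a description and not an independent test. Many of these genes are also induced by other pathways and in microglia, macrophages or leukocytes. The marker lists of these cells had higher mean levels in reactive arrays, and the part of these cells in the target list was not tested. The 3′ minus 5′ differences given beside Socs3 moved with the groups here too, and their part was not tested.

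**Figure D4:**
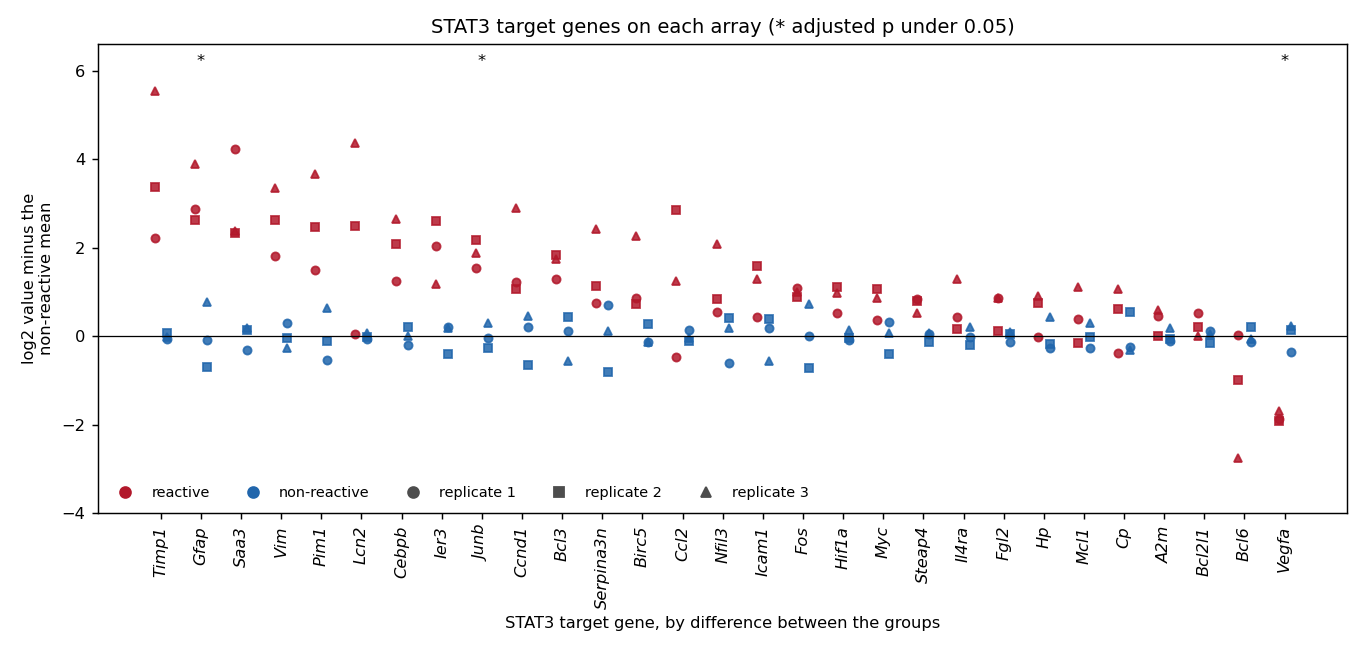
Log2 value of the 29 listed Stat3 target genes in each array minus the gene's mean over the non-reactive arrays, each gene by its brightest probe set and ordered by difference, reactive arrays (red) left of non-reactive arrays (blue). Asterisks mark the 3 called genes, and the reactive points of Vegfa, with a difference of -1.82, all lie below its non-reactive points.

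Junb, an immediate early transcription factor, had 7.92, 8.56 and 8.25 in reactive arrays, against 6.35, 6.11 and 6.68 in non-reactive arrays, without overlap. Its difference was 1.86 (SE 0.26, limma adjusted p = 0.0418). Vegfa, the vascular endothelial growth factor gene, had 5.97, 5.92 and 6.15 in reactive arrays, against 7.47, 7.96 and 8.07 in non-reactive arrays, also without overlap, and fell by 1.82 (SE 0.23, limma adjusted p = 0.0344). The other Vegfa probe set differed by -1.05, without overlap but also without a call (limma adjusted p = 0.411). Gfap, the astrocyte filament gene whose promoter defined the reactive sort, had 11.97, 11.71 and 12.98 in reactive arrays, against 9.01, 8.41 and 9.87 in non-reactive arrays. It rose by 3.12 (SE 0.48, limma adjusted p = 0.0492). The other Gfap probe sets differed by 2.34 and 2.18, with limma adjusted p-values of 0.0497 and 0.246. The Junb call was kept in 8 of 17 alternatives, the Vegfa call in 7 of 17 and the Gfap call in 3 of 16.

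Timp1, an inhibitor of matrix proteases, had the largest difference on the list and the same order of reactive arrays as Cebpd. It had 6.22, 7.38 and 9.55 in reactive replicates 1, 2 and 3, against 3.94, 4.08 and 3.99 in non-reactive arrays, and differed by 3.71 (SE 0.78, limma adjusted p = 0.104). Saa3, an acute phase gene, was instead highest in reactive replicate 1, with 8.28, 6.37 and 6.41 in reactive arrays, against 3.72, 4.17 and 4.23 in non-reactive arrays. Its difference was 2.98 (SE 0.53, limma adjusted p = 0.0714). Vim, the vimentin gene, differed by 2.59 at its brightest probe set (SE 0.41, limma adjusted p = 0.0512), and rose at its other two, by 3.40 and 3.81 (limma adjusted p = 0.0288 and 0.0409). Fos differed by 0.99 and Mcl1 by 0.45, without a call. The other Mcl1 probe sets differed by 0.14 to 1.25, also without a call. Lcn2 and Pim1 were picked after their values were seen because they repeat the order of Cebpd. Lcn2 had 3.04, 5.48 and 7.35 in reactive arrays, against 2.93, 2.98 and 3.06 in non-reactive arrays, and Pim1 had 7.80, 8.76 and 9.95 in reactive arrays, against 5.76, 6.19 and 6.94 in non-reactive arrays. Neither passed.

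The relatives of Cebpd gave 0 calls of 4 by limma, with 1 higher at an unadjusted p below 0.05. That gene was Cebpb, which encodes C/EBP beta and had 8.52, 9.35 and 9.93 in reactive arrays, against 7.08, 7.48 and 7.28 in non-reactive arrays. The groups did not overlap and the difference was 1.99 (SE 0.37, limma adjusted p = 0.0804). Cebpa differed by 0.31, Cebpg by -0.25 and Ddit3 by 0.13, and the other Cebpg probe sets by 1.24 and 0.46. The other Ddit3 probe set differed by -0.15 and the other, dim Cebpb probe set by 0.58.

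Likeness of pattern was measured as the root mean square difference between mean-centred log2 values over the 6 arrays, among 12106 genes with means at or above 4.74. The genes most like Stat3 were Apoh (0.0819), Efna4 (0.101) and A930018O16Rik (0.104). Those most like Socs3 1455899_x_at were Fcor (0.282), Rps27l (0.297) and Grb14 (0.318), and those most like Osmr were Med31 (0.489), Ets2 (0.499) and Josd2 (0.537). Med31, Ets2 and Josd2 share with Osmr a low reactive replicate 1. Of these 9 genes, Grb14 rose, by 2.27 (SE 0.24, limma adjusted p = 0.0241).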

How the data were processed

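RNA of sorted cells was amplified in 2 rounds, labelled with biotin and hybridised to 6 arrays, per the labels' protocols. The authors deposited log2 values made with RMA, per the submitters' processing notes. Which version and settings of RMA were used, and on which arrays, was not given in the sources used here. In its usual form RMA equalises the arrays' distributions, which hides changes in total RNA, and it can compress differences.

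Of 45101 probe sets, 64 controls were left out. The platform annotation gave 1 symbol to 34945 of the others, several to 932 and none to 9160. Gene identifiers of 34741 matched a GRCm38.p6 gene table. The groups were compared in R 4.3.3 with limma 3.58.1 (functions lmFit and eBayes), two-sided, without covariates, on all 6 arrays, with Benjamini-Hochberg adjustment and a threshold of 0.05. The labels call the arrays biological replicates. Intervals have a confidence level of 95%, and 3 arrays a group limit the precision. The fit was tested on simulated data.

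The members and the 14 lists were chosen with earlier results of these data known. From each pathway list the text names every called gene, 3 more at most by size of difference and 2 more by mean level, and from each marker list the called genes. Markers that differed little or went against their list were named after their values were seen. Other genes outside the rule are stated. The 17 alternatives covered scaling, the eBayes settings, array weights, dim and cross-hybridising probe sets, gene means, a block for the replicate number, a 1.5-fold test and each array left out.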

Additional observations from a re-analysis of the deposited data

How the results depend on the processing

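The number of called member probe sets, 1, stayed at 1 with median centring and with dim probe sets removed. It was 0 with quantile normalisation again, cyclic loess, an eBayes trend, robust eBayes, array weights, no _x_at, _s_at and _a_at probe sets, gene means, the replicate block and the 1.5-fold test, and 0 to 1 with an array left out. Removing the _x_at, _s_at and _a_at probe sets took out the called Socs3 probe set itself, so that 0 did not test its call again. Where limma called 0, between 2 and 7 members had an unadjusted p below 0.05. Without reactive replicate 1 the call was Osmr 1418674_at, not Socs3. Over the whole array 383 probe sets were called, and 185 with gene means, 41 with the 1.5-fold test and 1 with the replicate block. Leaving out an array gave 1 to 173 calls, with 57, 173 and 166 when reactive replicate 1, 2 or 3 was absent, 1 without non-reactive replicate 1 or 2 and 4 without non-reactive replicate 3. Of the pathway genes 3 were called, and 1 with an eBayes trend, 5 with dim probe sets removed, 0 with the replicate block, 0 with the 1.5-fold test and 0 to 1 with an array left out. Where limma called 0 of them, 13 to 26 had an unadjusted p below 0.05. Deviations of same-numbered arrays from their group means correlated at r of -0.0726, -0.107 and 0.0371, and those of differently numbered arrays at -0.108 to 0.193. With means of 3 arrays this check cannot decide whether the numbers pair the samples. With the replicate block the adjusted p of Socs3 1456212_x_at was 0.143. The causes of these changes were not tested.

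The sign of some differences that were not called turned. With gene means, Lifr was 0.0242, Stat3 -0.0784, Socs2 0.0462, Ptpn1 0.0713, Cebpg 0.48 and Ddit3 -0.0075. Cyclic loess gave -0.0150 for Clcf1 1450262_at, and median centring 0.000333 for Il6st 1460295_s_at. With an array left out, Lif spanned -0.0275 to 0.12 (1421207_at) and -0.18 to 0.12 (1450160_at), and Clcf1 1450262_at -0.0625 to 0.21. Il6st spanned -0.11 to 0.71 (1452843_at), -0.0212 to 0.41 (1421239_at) and -0.11 to 0.0518 (1460295_s_at). Lifr spanned -1.08 to 0.48 (1454984_at) and -0.195 to 0.27 (1450207_at), Osmr 1459217_at -0.085 to 0.51 and Stat3 1459961_a_at -0.58 to 0.15. Of the other genes, Ctf1 spanned -0.80 to 0.0715, Ebi3 -0.0803 to 0.70, Il6ra -0.97 to 0.36, Il31ra -0.0525 to 0.16, Jak2 -0.47 to 0.016, Ptpn1 -0.27 to 0.18, Cebpa -0.24 to 0.86, Cebpg -0.94 to 0.75 and Ddit3 -0.0183 to 0.32.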
